A study of Cavia porcellus with 12 samples.

Results

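The amino acid transporter families SLC1, SLC3, SLC6, SLC7, SLC36, SLC38 and SLC43 were examined in the livers of guinea pigs with nonalcoholic steatohepatitis (NASH) and of controls. Members were taken by symbol, as every entry of the deposited expression table whose human orthologue symbol carries 1 of these 7 family names. This gave 35 of the 11896 symbols. Among them, *SLC7A6OS* owes its name to its place on the opposite strand from *SLC7A6* and is no carrier, which left 34 transporter subunits. A list of 59 members of these families was written from knowledge of the families, and 25 of its symbols, among them *SLC7A11*, *SLC38A5*, *SLC6A12* and *SLC6A19*, were not in the table.

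Liver mRNA of 12 female Dunkin Hartley guinea pigs was measured by bulk RNA sequencing. The 6 controls (animals 5, 10, 31, 32, 45 and 56) received chow for 25 weeks and are labelled healthy. The 6 NASH animals (2, 9, 11, 20, 41 and 65) received a high-fat diet for 25 weeks. Per the study's methods, the NASH animals were picked among high-fat-fed animals for bridging fibrosis and the controls were drawn at random, so diet and disease cannot be told apart, and milder disease is not covered. The livers were not perfused and every sample came from the left lateral lobe.

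Amino acids cross membranes on carriers that differ in substrate, in coupling to sodium, protons or chloride, and in whether they import, export or exchange. SLC3 proteins do not transport by themselves but carry SLC7 light chains to the plasma membrane, whereas some SLC36 and SLC38 proteins act at the lysosome and report its amino acid content to the mTORC1 kinase. Hepatocytes take up glutamine, alanine, arginine and other amino acids from portal blood for urea synthesis, gluconeogenesis and protein synthesis, while bile duct cells, macrophages, fibroblasts and blood cells use partly different carriers.

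The libraries held between 16980274 and 33091460 counts, and levels are given as CPM, the count of a gene scaled to the size of its library and to the TMM factor of that library. Hepatocyte markers were high in every liver. Their summed level over 7 genes ran from 97267 to 118518 CPM in controls and from 40202 to 61233 CPM in NASH, and 6 of the 7 were called lower. All 5 cholangiocyte markers were called higher (summed level 73.2 to 115 CPM in controls and 302 to 539 CPM in NASH), as were all 7 stellate cell and myofibroblast markers (580 to 691 and 1175 to 2425 CPM), all 6 erythroid markers (58.3 to 173 and 439 to 4627 CPM) and all 3 cycling-cell markers (0.286 to 3.13 and 15.0 to 79.5 CPM). Endothelial markers were called higher in 3 of 5 cases (345 to 483 and 436 to 661 CPM), B and plasma cell markers in 3 of 4 (10.4 to 30.5 and 22.5 to 30.95 CPM), neutrophil markers in 2 of 3 (0.974 to 3.76 and 3.54 to 10.5 CPM) and nervous tissue markers in 1 of 2 (0.471 to 2.29 and 5.78 to 14.2 CPM). Of 4 macrophage markers (312 to 385 and 395 to 466 CPM) and of 5 T cell markers (52.9 to 109 and 30.4 to 58.0 CPM), 1 each was called higher and 1 lower. In bulk liver, fewer cells of a type and less RNA per cell cannot be told apart, and the part of these markers in the differences described here was not tested.

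Of the 34 subunits, 12 were called higher in NASH and 10 lower by edgeR at an adjusted p under 0.05, and 12 were not called. Over all 11896 symbols 53.9% were called, 27.9% higher and 26.0% lower. Among the 225 other SLC symbols 56.4% were called, against 64.7% of the subunits, a difference for which no test was made. In 10 subunits every NASH animal lay above every control, where the background share is 18.4%, and in 6 every NASH animal lay below, where it is 15.3%. The median log2 fold change of the subunits was 0.02, beside 0.00 over all symbols, which the TMM scaling holds near 0. By family it ran from -1.60 in SLC43, with 1 member in the table, to 2.05 in SLC1. Summed over the 34 subunits, the level fell from 2637 ± 324 CPM (SD, n = 6, range 2250 to 3115) in controls to 1527 ± 262 CPM (SD, n = 6, range 1285 to 1903) in NASH, and the groups did not overlap. Without the TMM factors they did, at 1969 to 2603 CPM in controls and 1562 to 2123 CPM in NASH. That sum is carried by the lowered members, which summed to 1829 to 2654 CPM in controls and 696 to 1259 CPM in NASH, while the raised members summed to 32.4 to 57.8 CPM and 173 to 213 CPM.

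The table holds symbols with at least 200 counts over the 12 animals. Of the 34 subunits, 25 would have passed in either group alone. A further 8 passed on their NASH counts alone (*SLC1A3*, *SLC1A4*, *SLC1A5*, *SLC6A4*, *SLC6A8*, *SLC6A9*, *SLC3A1* and *SLC38A11*), so for these the threshold itself selected on the NASH level, and *SLC6A7* passed only with both groups together. The counts of members given here therefore describe the members in the table and not the families as a whole. Without the TMM factors the split was 17 higher and 6 lower, since that scaling moves the median log2 fold change of all symbols to 0.48.

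**Figure D1:**
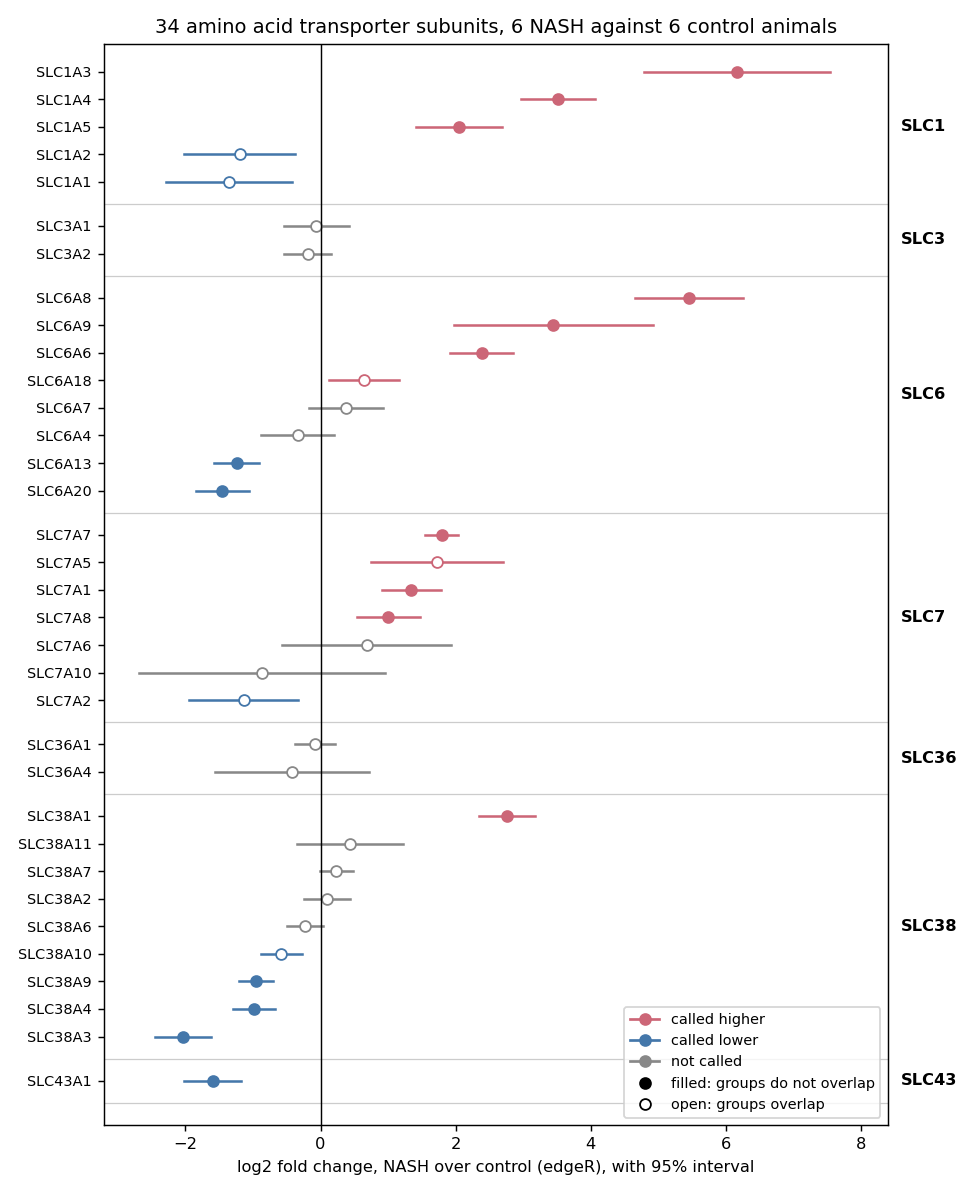
Log2 fold change (NASH over control, x axis) of the 34 transporter subunits by family, with 95% intervals from edgeR. Red marks members called higher (12), blue members called lower (10) and grey members not called (12), and filled points mark members whose groups did not overlap. The point of *SLC1A3* rests on 2 counts in the controls and has no firm size.

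The acidic amino acid carriers of SLC1, which take up glutamate and aspartate with sodium, moved in opposite directions. *SLC1A1* and *SLC1A2* were lower in NASH and *SLC1A3* was higher. *SLC1A2*, the main glutamate carrier of the brain and also present in hepatocytes, had a lowest, median and highest level of 110, 172 and 316 CPM in controls and 35.1, 64.8 and 167 CPM in NASH. Of the NASH animals 5 lay below every control and animal 65, at 167 CPM, lay among them. Its log2 fold change was -1.20 ± 0.38 (SE, edgeR adjusted p = 0.0179), and it was not called without the TMM factors (adjusted p = 0.0828).

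*SLC1A1*, which also carries cysteine, ran from 18.8 CPM through a median of 139 CPM to 156 CPM in controls and from 20.5 through 44.7 to 80.4 CPM in NASH. The lowest value of all 12 animals was that of control 56, whereas the other 5 controls lay between 107 and 156 CPM, above every NASH animal. The fit gave a log2 fold change of -1.35 ± 0.43 (SE, edgeR adjusted p = 0.018), and the call was lost with limma-voom (adjusted p = 0.0558) and without the TMM factors (adjusted p = 0.0734).

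*SLC1A3*, a glutamate carrier best known from astrocytes, was read only 2 times in the controls, both in animal 31, and 301 times in NASH. The NASH levels ran from 0.910 through a median of 1.54 to 2.75 CPM and did not overlap with those of the controls. The ratio of the pooled rates was 89.9, with an exact 95% interval of 24.7 to 746 that covers counting error only. The edgeR adjusted p was 5.33e-06. Its level stayed low in every liver, with 26 to 81 counts per NASH animal.

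Both small neutral exchangers of SLC1 were called higher, with no overlap between the groups. *SLC1A4*, an exchanger of alanine, serine and cysteine, had levels of 0.359, 0.728 and 1.15 CPM (lowest, median and highest) in controls and 6.57, 7.86 and 12.0 CPM in NASH. This was a log2 fold change of 3.52 ± 0.25 (SE, edgeR adjusted p = 3.09e-07), or 11.5-fold in the fit, from which the fold changes of other members are also taken. *SLC1A5*, the glutamine exchanger ASCT2, had levels of 0.269, 1.24 and 1.69 CPM in controls and 3.57, 4.69 and 6.61 CPM in NASH, 4.14-fold higher (log2 fold change 2.05 ± 0.29 SE, edgeR adjusted p = 7.72e-05).

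**Figure D2:**
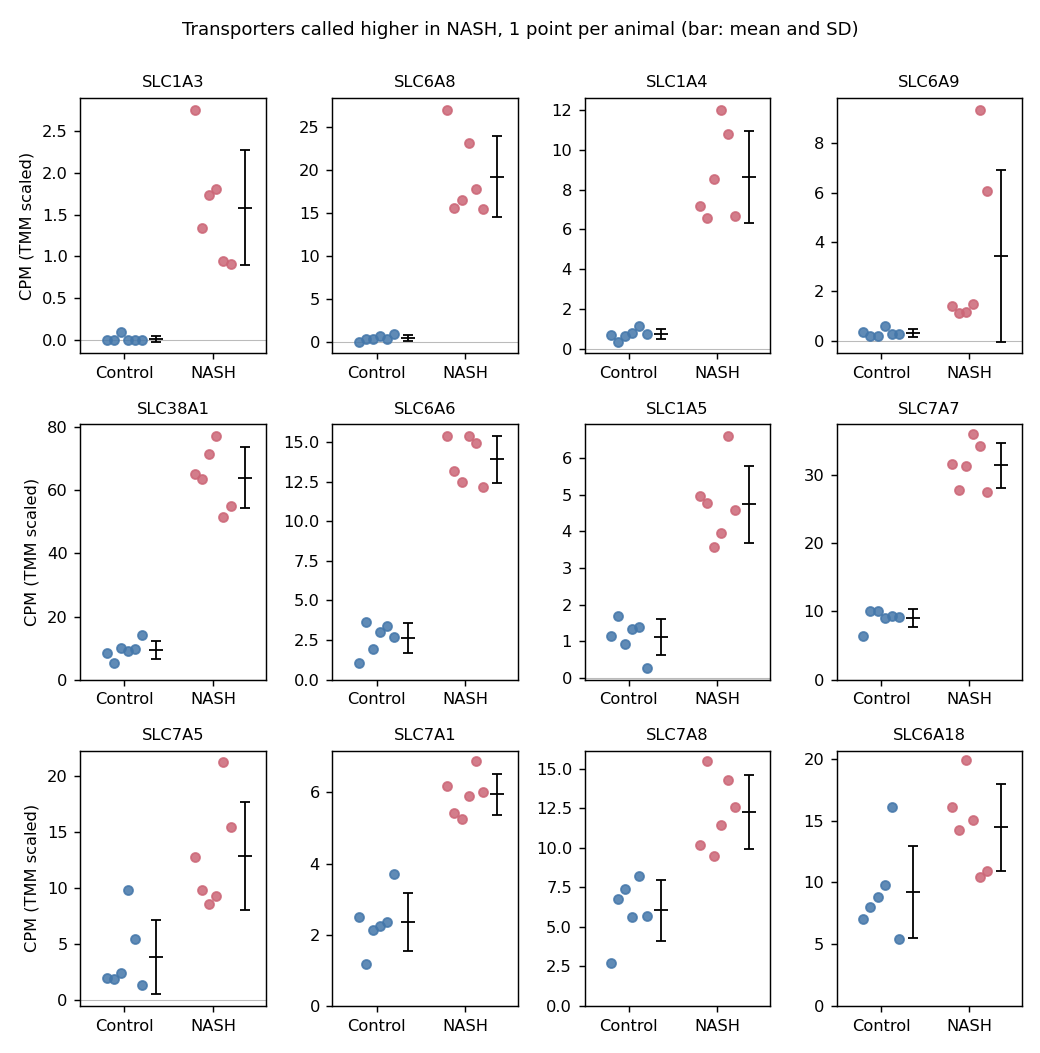
CPM of each animal (y axis, linear) in the 6 controls (blue) and 6 NASH animals (red) for the 12 subunits called higher, ordered by log2 fold change, with the mean and SD as bars. In 10 of the 12 panels every NASH point lies above every control, the exceptions being *SLC7A5* and *SLC6A18*.

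Among the SLC6 carriers of taurine, creatine and GABA, 2 were called higher and 1 lower. *SLC6A8*, the creatine carrier, was low in controls, with 0 counts in animal 5 and a highest level of 0.942 CPM in animal 56. In NASH it ran from 15.5 through a median of 17.1 to 27.0 CPM. No animal overlapped, and the fit gave a log2 fold change of 5.46 ± 0.37 (SE, edgeR adjusted p = 2.4e-07). Its count row also stands for a second symbol, *AC136616.1*, so the counts of this pair cannot be told apart.

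*SLC6A6*, the taurine carrier, had levels of 1.07, 2.84 and 3.64 CPM (lowest, median and highest) in controls and 12.2, 14.0 and 15.4 CPM in NASH. The lowest NASH animal lay well above the highest control, and the fit gave a 5.22-fold higher level (log2 fold change 2.39 ± 0.22 SE, edgeR adjusted p = 1.99e-06). *SLC6A13*, which carries GABA, betaine and taurine and is known for its expression in periportal hepatocytes, went the other way. It ran from 340 through 362 to 390 CPM in controls and from 108 through 155 to 206 CPM in NASH. The controls were nearly uniform, all NASH animals lay below them, and the log2 fold change was -1.24 ± 0.15 (SE, edgeR adjusted p = 2.3e-05).

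Of the SLC6 carriers of neutral amino acids, glycine and proline, *SLC6A9* and *SLC6A18* were called higher, *SLC6A20* lower and *SLC6A7* not at all. *SLC6A20*, an imino acid carrier that takes up proline, had levels of 60.4, 73.4 and 78.4 CPM (lowest, median and highest) in controls and 16.3, 23.4 and 39.2 CPM in NASH. The groups did not overlap, with a log2 fold change of -1.45 ± 0.18 (SE, edgeR adjusted p = 2.73e-05). *SLC6A18*, a carrier of glycine and alanine known mainly from the kidney, ran from 5.38 through 8.42 to 16.1 CPM and from 10.5 through 14.7 to 19.95 CPM. Its groups overlapped and the log2 fold change of 0.64 ± 0.24 (SE, edgeR adjusted p = 0.0376) lost its call in 9 of 12 fits that left out 1 animal, with adjusted p up to 0.0867 (without NASH animal 11), and without controls 5 and 56 (0.149). The 3 fits that kept the call left out control 45 or NASH animal 41 or 65.

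*SLC6A9*, the glycine carrier GLYT1 that red cell precursors use to supply heme synthesis, was uneven within NASH. It ran from 0.186 through a median of 0.258 to 0.597 CPM in controls. The 4 NASH animals 2, 9, 11 and 20 lay between 1.11 and 1.496 CPM, animal 65 at 6.06 CPM and animal 41 at 9.36 CPM. The log2 fold change was 3.45 ± 0.68 (SE, edgeR adjusted p = 0.000961). It was 2.83 without animal 41 and 2.03 without animals 41 and 65, still called (edgeR adjusted p = 0.00118 and 0.000436). The summed erythroid markers, mostly *HBA1*, were 4627 CPM in animal 41 and 3342 CPM in animal 65. In the other 4 NASH animals they were 439 to 736 CPM. The part of the erythroid markers in the level of *SLC6A9* was not tested.

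*SLC6A7*, a proline carrier of the nervous system, had a total of 224 counts and a log2 fold change of 0.38 (95% interval -0.17 to 0.92, edgeR adjusted p = 0.226). *SLC6A4*, the serotonin carrier, stands in the family without carrying an amino acid. It had levels of 0.715 to 2.35 CPM in controls and 0.935 to 1.38 CPM in NASH, a log2 fold change of -0.34 (95% interval -0.88 to 0.20, edgeR adjusted p = 0.273).

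Neither heavy chain differed beyond the spread between animals. *SLC3A2* (4F2hc, also known as CD98), the partner of most SLC7 light chains, ran from 66.7 through a median of 88.7 to 123 CPM in controls and from 67.6 through 77.5 to 99.1 CPM in NASH. Its log2 fold change was -0.19 (95% interval -0.54 to 0.16, edgeR adjusted p = 0.341). *SLC3A1* (rBAT), the partner of *SLC7A9*, ran from 1.14 to 2.02 CPM and from 0.986 to 2.06 CPM, a log2 fold change of -0.06 (95% interval -0.55 to 0.43, edgeR adjusted p = 0.838). Both intervals leave out a 2-fold change in either direction.

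Of the 5 light chains in the table, 3 were called higher. Whether they differ from their heavy chain *SLC3A2*, which was not called, was not tested. *SLC7A7* (y+LAT1), which exchanges cationic against neutral amino acids and is mutated in lysinuric protein intolerance, was higher in every NASH animal than in any control. It ran from 6.43 through 9.28 to 10.1 CPM in controls and from 27.5 through 31.5 to 35.9 CPM in NASH, 3.47-fold higher (log2 fold change 1.79 ± 0.11 SE, edgeR adjusted p = 1.49e-07). *SLC7A8* (LAT2), an exchanger of neutral amino acids, had levels of 2.72, 6.21 and 8.23 CPM in controls and 9.47, 12.0 and 15.5 CPM in NASH. The groups did not overlap and NASH was 2.01-fold higher (SE of the log2 fold change 0.22, edgeR adjusted p = 0.00164).

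*SLC7A5* (LAT1), which exchanges leucine and other large neutral amino acids against glutamine, had levels of 1.35, 2.18 and 9.87 CPM (lowest, median and highest) in controls and 8.62, 11.3 and 21.3 CPM in NASH. The groups overlapped only through control 32, at 9.87 CPM. The log2 fold change was 1.73 ± 0.45 (SE, edgeR adjusted p = 0.00584). Its highest NASH levels were those of animals 41 and 65, at 21.3 and 15.5 CPM, which also had the highest erythroid marker sums, a link that was not tested. Without this pair the log2 fold change was 1.38 (edgeR adjusted p = 0.0346).

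The other 2 light chains varied widely and were not called. *SLC7A6* (y+LAT2) ran from 0 to 3.37 CPM in controls and from 1.61 to 3.77 CPM in NASH (log2 fold change 0.68, 95% interval -0.57 to 1.94, edgeR adjusted p = 0.339). *SLC7A10* (Asc-1), a carrier of small neutral amino acids including D-serine, ran from 0.229 to 15.0 CPM in controls and from 0.128 to 8.14 CPM in NASH (log2 fold change -0.87, 95% interval -2.69 to 0.96, edgeR adjusted p = 0.408). Its lowest levels were those of control 32 and NASH animals 41 and 65. *SLC7A6OS*, the matched symbol that is no carrier, was called higher, at 14.6 ± 1.93 CPM (SD, n = 6) in controls and 20.2 ± 1.86 CPM (SD, n = 6) in NASH (log2 fold change 0.47 ± 0.10 SE, edgeR adjusted p = 0.00119). The library kit keeps strand, but whether the counting used it is not given in the sources used here, so reads of *SLC7A6* and of its antisense neighbour may not be fully separated.

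The carriers of cationic amino acids in SLC7 changed in opposite directions. *SLC7A1* (CAT1), which brings arginine and lysine into most cells other than hepatocytes, had levels of 1.18, 2.30 and 3.70 CPM (lowest, median and highest) in controls and 5.24, 5.96 and 6.89 CPM in NASH. Every NASH animal lay above every control and the log2 fold change was 1.35 ± 0.20 (SE, edgeR adjusted p = 0.000108). *SLC7A2* (CAT2), the cationic carrier of hepatocytes, had levels of 192, 280 and 674 CPM in controls and 86.7, 173 and 282 CPM in NASH. Controls 5 and 10, at 630 and 674 CPM, stood above the other 4 controls (192 to 286 CPM), which overlapped with NASH. Its log2 fold change was -1.13 ± 0.37 (SE, edgeR adjusted p = 0.0207) and was no longer called without control 5 (log2 fold change -0.94, adjusted p = 0.0509) or without control 10 (-0.90, adjusted p = 0.0525), nor without the TMM factors (-0.66, adjusted p = 0.106).

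**Figure D3:**
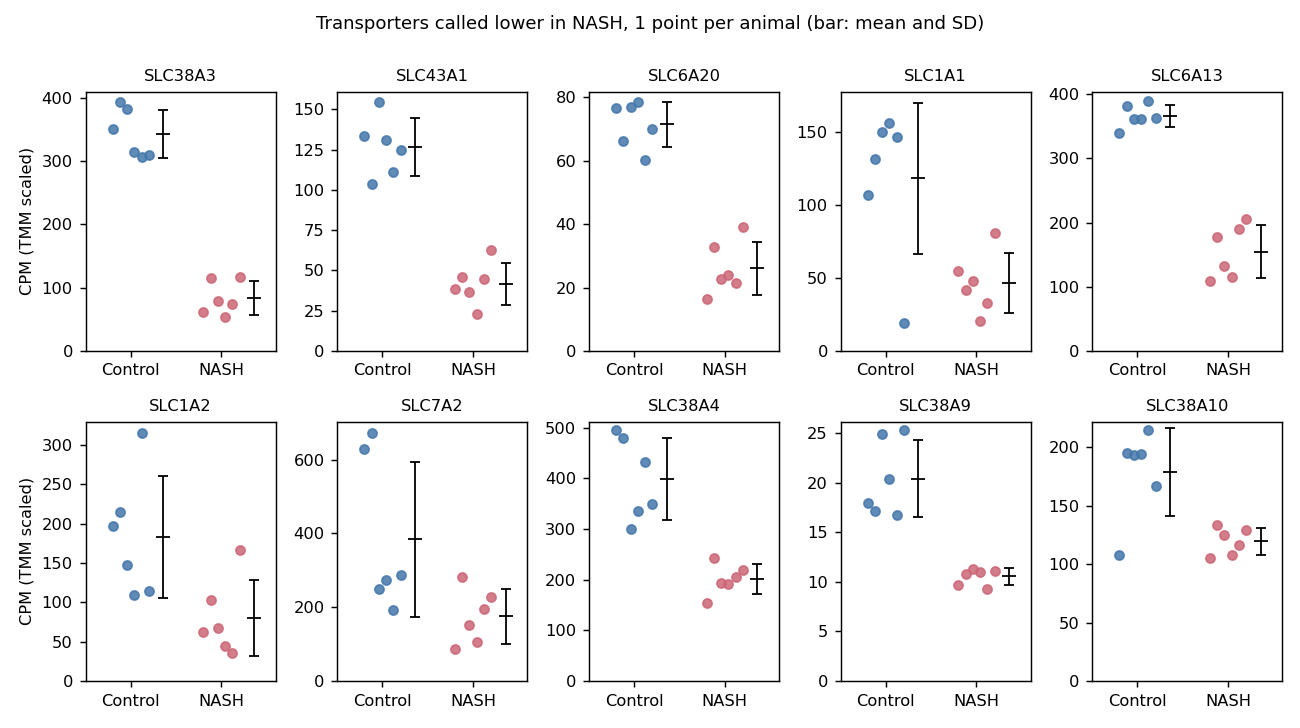
CPM of each animal (y axis, linear, from 0) in the 6 controls (blue) and 6 NASH animals (red) for the 10 subunits called lower, ordered by log2 fold change, with the mean and SD as bars. The groups are apart in 6 panels and overlap for *SLC1A1*, *SLC1A2*, *SLC7A2* and *SLC38A10*.

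The 3 system A carriers of SLC38, which take up alanine, glutamine and other small neutral amino acids with sodium and whose genes lie next to each other in mammalian genomes, showed 3 different patterns. *SLC38A1* (SNAT1) had levels of 5.33, 9.40 and 14.1 CPM (lowest, median and highest) in controls and 51.5, 64.5 and 77.2 CPM in NASH. It was 6.79-fold higher with no overlap (log2 fold change 2.76 ± 0.19 SE, edgeR adjusted p = 2.98e-07). *SLC38A2* (SNAT2), the form that amino acid shortage induces, had levels of 157, 202 and 269 CPM in controls and 136, 231 and 253 CPM in NASH and was not called (log2 fold change 0.09, 95% interval -0.25 to 0.44, edgeR adjusted p = 0.646). *SLC38A4* (SNAT4), the system A form typical of hepatocytes, fell from 299, 391 and 494 CPM to 154, 199 and 242 CPM. No NASH animal reached the lowest control and the log2 fold change was -0.99 ± 0.14 (SE, edgeR adjusted p = 8.03e-05).

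*SLC38A3* (SNAT3), the system N carrier by which hepatocytes take up and release glutamine, had the lowest log2 fold change of the subunits. It ran from 305 through a median of 333 to 392 CPM in controls and from 53.9 through 76.5 to 116 CPM in NASH. The groups were far apart, with controls 4.12-fold higher (log2 fold change -2.04 ± 0.19 SE, edgeR adjusted p = 2.54e-06).

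Of the 5 remaining SLC38 members, 2 were called lower. *SLC38A9*, the lysosomal arginine sensor that signals to mTORC1, had levels of 16.8, 19.2 and 25.4 CPM (lowest, median and highest) in controls and 9.28, 10.9 and 11.3 CPM in NASH. It was lower in every NASH animal than in any control (log2 fold change -0.95 ± 0.12 SE, edgeR adjusted p = 2.34e-05). *SLC38A10* had levels of 108, 193 and 214 CPM in controls and 105, 120 and 133 CPM in NASH, overlapping only through control 5 (log2 fold change -0.58 ± 0.14 SE, edgeR adjusted p = 0.0035). Without the TMM factors it was not called (log2 fold change -0.11, edgeR adjusted p = 0.485). *SLC38A6*, *SLC38A7*, which exports glutamine from lysosomes, and *SLC38A11* were not called, with log2 fold changes of -0.23, 0.23 and 0.44 and edgeR adjusted p of 0.133, 0.0959 and 0.333. *SLC38A7* stood near the threshold and was called with the upper-quartile factors (adjusted p = 0.0299), with every row with a count (0.0499), without NASH animal 11 (0.0423) and without the TMM factors (0.000106).

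The proton-coupled carriers of SLC36, which move small amino acids out of lysosomes or across the plasma membrane, were not called. *SLC36A1* (PAT1) ran from 17.2 to 30.4 CPM in controls and from 21.7 to 31.1 CPM in NASH (log2 fold change -0.08, 95% interval -0.38 to 0.21, edgeR adjusted p = 0.627). *SLC36A4* (PAT4) spread from 6.57 to 49.8 CPM and from 10.4 to 39.0 CPM (log2 fold change -0.43, 95% interval -1.57 to 0.72, edgeR adjusted p = 0.518). *SLC43A1* (LAT3), a sodium-independent carrier of branched-chain amino acids, was the only SLC43 member in the table. It had levels of 104, 128 and 154 CPM in controls and 22.8, 41.4 and 62.5 CPM in NASH, with no overlap (log2 fold change -1.60 ± 0.19 SE, edgeR adjusted p = 2.14e-05). Its count row is shared with *TIMM10*, a mitochondrial import protein, so the counts of these genes cannot be told apart.

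The NASH animals were not equally low. Animal 65 had the highest NASH level in 6 of the 10 lowered subunits and animal 9 in 3, whereas animal 2 had the lowest in 5, animal 20 in 3 and animal 41 in 2. The summed level of the lowered subunits was 1259 CPM in animal 65, 1185 CPM in animal 9, 697 CPM in animal 20 and 696 CPM in animal 2. Hepatocyte marker sums, to which *ALB* contributes most, were also highest in animals 65 and 9 (61233 and 54013 CPM). They were lowest in animals 20 and 2 (40202 and 41524 CPM). Among the 12 raised subunits, animal 41 had the highest NASH level in 4 and animals 2 and 20 in 3 each, while animals 11 and 65 each had the lowest in 4 and animal 65 the highest in 0. Their summed level, to which a few members contribute most, was 173 CPM in animal 65, 179 CPM in animal 9, 190 CPM in animal 11, 199 CPM in animal 41, 201 CPM in animal 2 and 213 CPM in animal 20, so that its ends mirrored those of the lowered subunits. Cholangiocyte marker sums were likewise lowest in animal 65 (302 CPM) and highest in animal 20 (539 CPM), with animal 11 second highest (482 CPM) and animal 41 at 419 CPM. Stellate cell and myofibroblast marker sums were also lowest in animal 65 (1175 CPM) and highest in animals 20 and 2 (2425 and 2122 CPM), with animal 41 second lowest (1268 CPM). These are descriptions of 6 animals, and the part of the markers in them was not tested.

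A ratio of 2 members within an animal does not depend on the scaling between animals. Of 9 pairs of related members (8 of carriers with shared substrates and 1 of the heavy chains), 7 had both members in the table. The ratio of *SLC7A1* to *SLC7A2* rose from -7.21 ± 1.09 to -4.75 ± 0.69 on the log2 scale (SD, n = 6 each), a difference of 2.46, with no overlap (exact two-sided permutation p = 0.00216, which is the smallest that 6 against 6 animals can give, and 0.00758 adjusted over 7 pairs). The ratio of *SLC38A2* to *SLC38A4* rose from -0.96 ± 0.29 to 0.10 ± 0.35, a difference of 1.06, also with no overlap (exact permutation p = 0.00216, adjusted 0.00758). *SLC1A5* fell relative to *SLC1A4* by 1.30 on the log2 scale, although both were called higher (exact permutation p = 0.0108, adjusted 0.0253), a call that was lost in 10 of 12 rounds with 1 animal left out, with adjusted p up to 0.101 (without NASH animal 20).

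The ratio of *SLC7A5* to *SLC7A8* differed by 0.96 between the groups and was not called (exact permutation p = 0.0823, adjusted 0.144). Without control 32 it differed by 1.31 and was called (adjusted 0.0202). *SLC7A6* to *SLC7A7* differed by -0.37, *SLC3A1* to *SLC3A2* by 0.09 and *SLC36A1* to *SLC36A4* by 0.15, each with an adjusted exact permutation p of 0.777. From the deposited rlog values, which shrink low counts, *SLC7A6* to *SLC7A7* differed by -0.78 (adjusted 0.00379).

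**Figure D4:**
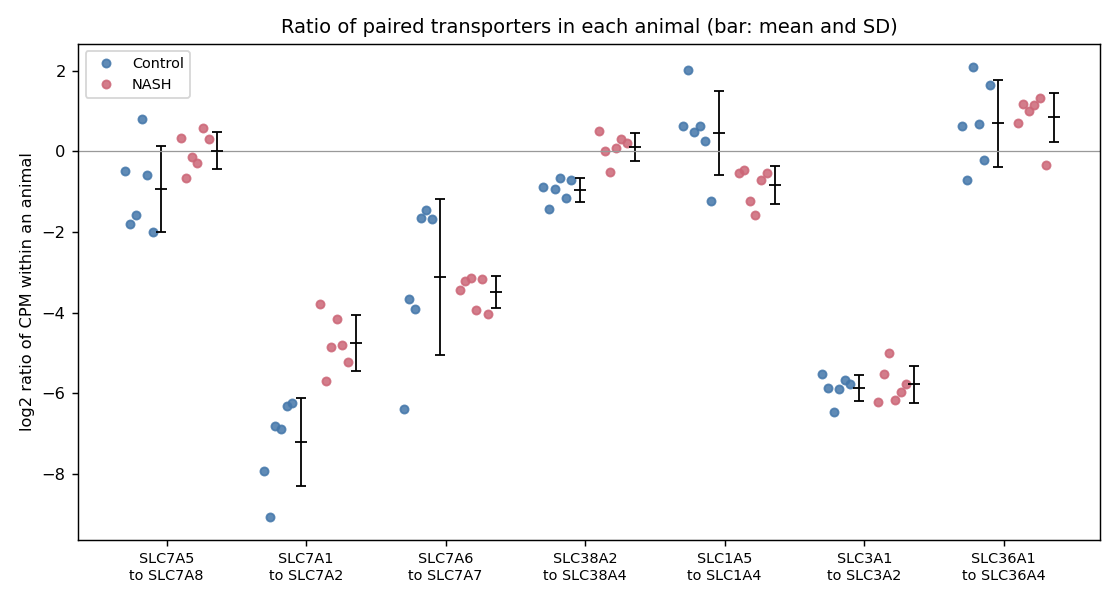
Log2 ratio of the CPM of 2 transporters within each animal (y axis) for the 7 pairs (x axis), in 6 controls (blue) and 6 NASH animals (red), with the mean and SD as bars. The groups are apart for *SLC7A1* to *SLC7A2* and for *SLC38A2* to *SLC38A4* and overlap in the other 5 pairs.

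Genes that handle amino acids inside the cell were read from the same fit in 6 lists, of which 118 of 136 genes were in the table, 22 called higher, 51 lower and 45 not called. The threshold of 200 counts also applied to these lists, and how many of their genes passed it on 1 group alone was not counted. Amino acid breakdown was the list with the most lowered genes. Of its 23 genes 21 were called lower and 0 higher by edgeR, against 26.0% and 27.9% of all symbols. The count called higher was also 0 at an unadjusted p under 0.05, with DESeq2 and with limma-voom, and it was 2 without TMM factors. The median log2 fold change was -0.92. *SDS*, which deaminates serine, was the lowest, at 80.4 ± 60.2 CPM (SD, n = 6) in controls and 8.88 ± 13.7 CPM (SD, n = 6) in NASH (log2 fold change -3.17 ± 0.94 SE, edgeR adjusted p = 0.0122). *PRODH*, which degrades proline, the substrate of *SLC6A20*, fell by 2.93 on the log2 scale (edgeR adjusted p = 5.42e-05). *ARG1*, the arginase that uses the substrate of *SLC7A2*, fell by 1.30 (edgeR adjusted p = 1.08e-05). *CDO1* and *CSAD*, which make taurine from cysteine, fell by 0.88 and 1.01 (edgeR adjusted p = 1.3e-05 and 4.53e-05). *AASS* and *BCAT2* were not called (edgeR adjusted p = 0.773 and 0.272).

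In glutamate, glutamine and glutathione metabolism, 16 of 22 genes were in the table, 3 called higher, 7 lower and 6 not called, where 27.9% of all symbols were higher and 26.0% lower. The median log2 fold change with the TMM factors was -0.26. The split of this list moved to 7 higher and 4 lower without these factors. *GLS2*, the liver glutaminase, went from 329 ± 66.6 CPM to 139 ± 43.1 CPM (SD, n = 6 each, log2 fold change -1.25 ± 0.20 SE, edgeR adjusted p = 0.000187) and was the lowest of them. *GLUD1*, glutamate dehydrogenase, fell by 0.86 (edgeR adjusted p = 9.1e-06), whereas *GLUL*, glutamine synthetase, was not called (log2 fold change -0.09, edgeR adjusted p = 0.637). *GGT7* had the highest log2 fold change, 1.32 (edgeR adjusted p = 0.0113), and *GSS*, glutathione synthetase, was higher by 0.51 (edgeR adjusted p = 3.14e-05).

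Genes of the ATF4 and amino acid response, the program that amino acid shortage turns on, were called higher in 9 of 25 cases and lower in 8, while 8 were not called, with a median log2 fold change of 0.06. These shares are not far from the 27.9% higher and 26.0% lower over all symbols. The split moved to 15 higher and 2 lower without the TMM factors, where 7603 and 911 of all symbols were called so. *MTHFD2*, a mitochondrial folate enzyme, was read in only 1 control and reached 13.8 ± 4.07 CPM (SD, n = 6) in NASH (edgeR adjusted p = 5.49e-07). *CHAC1*, which degrades glutathione, was likewise read in only 1 control and reached 2.16 ± 0.49 CPM (SD, n = 6) (edgeR adjusted p = 4.76e-06). *ASNS*, asparagine synthetase, was higher by 0.42 (edgeR adjusted p = 0.0217). *CTH*, which makes cysteine from cystathionine, had the lowest log2 fold change, -1.45 ± 0.13 (SE, edgeR adjusted p = 1.79e-06), and the serine synthesis genes *PHGDH*, *PSAT1* and *PSPH* fell by 0.72, 0.64 and 0.86 (edgeR adjusted p = 0.000102, 0.000169 and 0.0122). *ATF4* itself was not called (log2 fold change -0.10, edgeR adjusted p = 0.39).

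Of 30 genes of mTORC1 amino acid sensing, 1 was called higher, 9 lower and 20 not, so that 33.3% were called, against 53.9% of all symbols. The share called lower was near the 26.0% of all symbols, whereas 27.9% of all symbols were called higher. In 8 of the 30 every NASH animal lay below every control and in 0 above, where the background shares are 15.3% and 18.4%. Without the TMM factors 19 were called higher and 0 lower, where 7603 and 911 of all 11896 symbols were. The median log2 fold change was -0.09. *SESN3* was called higher (log2 fold change 1.51 ± 0.32 SE, edgeR adjusted p = 0.00155), and *CASTOR2*, of the arginine sensor family, had the lowest value (-0.70 ± 0.13 SE, edgeR adjusted p = 0.000516). Of 15 other amino acid and peptide carriers, 4 were called higher and 5 lower, close to the 27.9% and 26.0% of all symbols, with a median log2 fold change of -0.20. Without the TMM factors 8 of these carriers were called higher and 2 lower. *SLC15A2*, a peptide carrier, went from 0.328 ± 0.203 to 7.69 ± 1.54 CPM (SD, n = 6 each, log2 fold change 4.46 ± 0.35 SE, edgeR adjusted p = 6.19e-07), and *SLC16A10*, an exporter of aromatic amino acids, from 57.1 ± 19.0 to 23.8 ± 13.2 CPM (log2 fold change -1.26 ± 0.37 SE, edgeR adjusted p = 0.0124). Of 9 partners and regulators of the carriers, 5 were called higher and 1 lower, where 27.9% and 26.0% of all symbols were, with a median log2 fold change of 0.21. Without the TMM factors 8 of these 9 were called higher and 0 lower. *MYC*, which raises *SLC1A5* and *SLC7A5* in proliferating cells, was the highest (log2 fold change 2.41 ± 0.23 SE, edgeR adjusted p = 3.26e-06), *NEDD4L*, a ubiquitin ligase that removes carriers from the membrane, was higher by 0.68 (edgeR adjusted p = 0.000299) and *KEAP1* was lower by 0.78, at 38.6 ± 13.8 CPM and 22.5 ± 2.65 CPM (SD, n = 6 each, edgeR adjusted p = 0.00341).

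**Figure D5:**
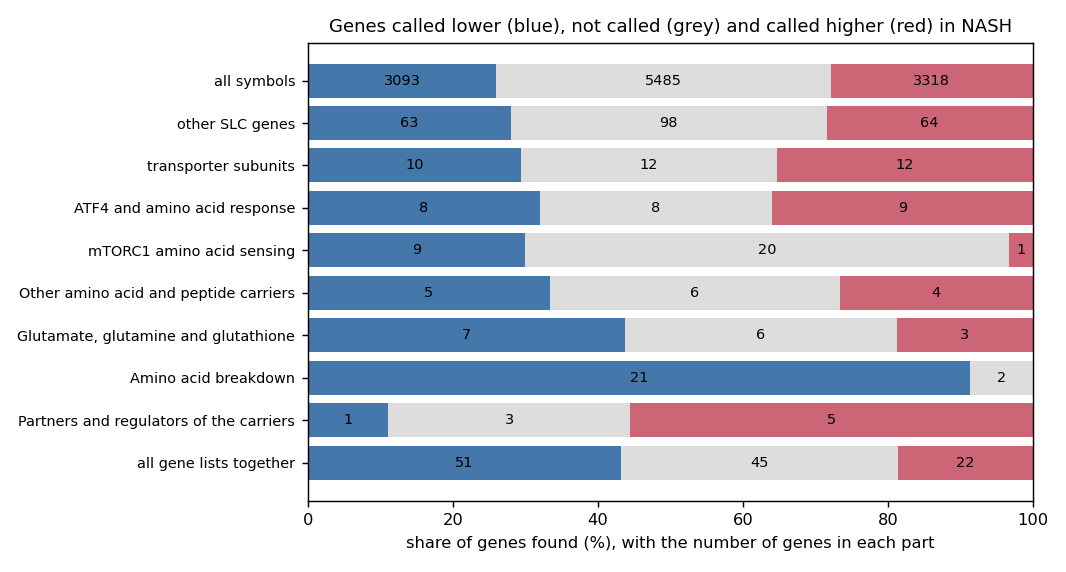
Share of genes (x axis, %) called lower (blue), not called (grey) and called higher (red) in NASH among all symbols, the other SLC genes, the 34 transporter subunits, each of the 6 lists of amino acid genes and these lists together, with the number of genes in each part. Amino acid breakdown has 21 of 23 genes lower and the subunits 10 lower and 12 higher.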

How the data were processed

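Liver mRNA of 6 control and 6 NASH guinea pigs was measured, with 1 library per animal and groups taken from the labels. The authors trimmed stranded single reads with Trimmomatic 0.38.0, mapped them to Cavpor3.0 with HISAT2 2.1.0, ignored multimapped reads, quantified loci with StringTie 1.3.6 and deposited raw counts per locus without symbols. The authors also deposited log2 values (rlog transformation of DESeq2) for 11896 human orthologue symbols with a total of at least 200 counts. Human orthologue symbols were assigned across species, which can merge or drop family members. Symbols were paired with count rows by running that transformation again in DESeq2 1.42.0, and the values differed from the deposited ones by at most 8.4e-07. The 11896 symbols came from 11031 rows, and 1515 symbols shared a row with another symbol.

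Counts were tested with edgeR 4.0.16 in R 4.3.3, as a robust quasi-likelihood F test on TMM-scaled libraries, whose sizes were the sums over all deposited rows. The Benjamini-Hochberg adjustment ran over all 11896 symbols, with a threshold of 0.05. Each SE was obtained by dividing the size of the log2 fold change by the root of F. Within-animal log2 ratios used a prior count of 2 and two-sided exact permutation tests. A count of 0 was read as allowing up to 3 counts, which is 0.123 to 0.214 CPM in controls and 0.0765 to 0.105 CPM in NASH. The exact interval of the pooled *SLC1A3* rates and this limit cover counting error only, whereas the edgeR intervals also include the spread between animals. Reads without molecular identifiers are not independent molecules. In every pair of animals of a group the counts differed by more than counting error. The procedures were tested on simulated data.

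The members, lists, pairs and tests were chosen with earlier results of these data known. Every member in the table is named. Of each other list the called genes with the highest and lowest log2 fold change and up to 4 related to a member are named, and *ATF4*, *AASS*, *BCAT2*, *GLUL*, *GSS*, *ASNS*, *CHAC1*, *PHGDH*, *PSAT1*, *PSPH*, *NEDD4L* were named, as relatives of a member or of its list, after their values were seen. *ALB*, *HBA1* and *CD3E* were named for their share of a marker sum, also after their values were seen. *SLC7A6OS* was matched by symbol and kept out of the counts of subunits. Alternatives were the RLE and upper-quartile factors, library size alone, DESeq2, limma-voom and limma on the rlog values (limma 3.58.1), every row with a count, filterByExpr, each row once, an adjusted p under 0.01, testing for a change beyond 2-fold, prior counts of 0.5 and 5, and each animal left out in turn. Leaving out NASH animals 41 and 65 or controls 5 and 56 together was added after seeing the data. No sequence of the members was used here. Figures were drawn with matplotlib 3.10.9.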

Additional observations from a re-analysis of the deposited data

Results flagged for a closer look

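In 11 of 68 groups of 6 animals (34 subunits in 2 groups) the gap between the highest or lowest animal and its nearest neighbour took up an unusually large share of the group's range, above Dixon's 95% critical value for 6 samples. Chance alone gives about 1 in 20 groups. The values are shares of the range in log2 CPM (prior count of 2).

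Control 5, with the second smallest library of the controls, was the lowest control of *SLC7A7* (0.754), *SLC36A1* (0.695), *SLC7A8* (0.651) and *SLC38A10* (0.634). Control 56, with the smallest library, was the lowest control of *SLC1A1* (0.819) and *SLC1A5* (0.655). Control 32 was the lowest control of *SLC7A10* (0.684). Control 31 was the highest control of *SLC1A3* (1), where the other 5 controls had 0 counts. In NASH, animal 65 was the highest for *SLC36A4* (0.819), animal 9 the lowest for *SLC38A6* (0.638) and animal 11 the lowest for *SLC38A2* (0.634). Without controls 5 and 56, 11 subunits were called higher and 9 lower.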

How the results depend on the processing

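No paired analysis was possible because the animals carry individual numbers that no control shares with a NASH animal. None of the 22 called subunits changed sign under any alternative run. Of the subunits, 12 were called higher and 10 lower. Library size alone gave 17 and 6, and testing for a change beyond 2-fold (1 on the log2 scale) gave 8 and 3. The other alternatives gave 11 to 13 higher and 7 to 10 lower. Over all symbols, 3318 were called higher and 3093 lower. These counts were 7603 and 911 with library size alone, 5985 and 4828 with every row with a count, 5089 and 4734 with filterByExpr (both of these test more rows), and 853 and 247 beyond 2-fold. Among the other amino acid genes, 22 were called higher and 51 lower, against 59 and 24 with library size alone and 8 and 5 beyond 2-fold. The median log2 fold change of all symbols was 0.00, and it was 0.48 with library size alone, 0.09 with every row and 0.08 with upper-quartile factors.

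Members not called in the report changed sign with library size alone: *SLC36A1* (0.38), *SLC36A4* (0.037), *SLC38A6* (0.24), *SLC3A1* (0.41), *SLC3A2* (0.28) and *SLC6A4* (0.13). Of these *SLC36A1* was then called higher (adjusted p = 0.025), as were *SLC38A2* (0.57, adjusted p = 0.00439), *SLC38A7* (0.71, 0.000106), *SLC38A11* (0.91, 0.0424) and *SLC6A7* (0.85, 0.0111), which were not called with TMM factors. The sign of *SLC3A1* also changed with upper-quartile factors (0.012) and with every row (0.022), without a call. That of *SLC38A2* changed without NASH animals 41 and 65 (-0.037), also without a call. With 1 animal left out, *SLC36A4* ranged from -0.92 to 0.020 (positive without control 10) and *SLC3A1* from -0.19 to 0.050 (positive without control 32 or NASH animal 2 or 20). *SLC1A3* ranged from 5.90 to 8.38, the latter without control 31, when no control has a count and no firm size can be given. The calls of *SLC1A2*, *SLC1A1*, *SLC7A2* and *SLC38A10* were lost with library size alone, that of *SLC7A2* also with every row (adjusted p = 0.0503), and a threshold of 0.01 lost *SLC1A1*, *SLC1A2*, *SLC6A18* and *SLC7A2*.

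Among the ratios, *SLC7A6* to *SLC7A7* was called from the rlog values (-0.78). It differed by -0.019 with a prior count of 0.5 and by -0.61 with 5, neither called. Control 5 had 0 counts of *SLC7A6*, so its ratio depends on the prior count. With 1 animal left out this ratio ranged from -1.02 to -0.033 and was not called. With 1 animal left out, *SLC7A5* to *SLC7A8* ranged from 0.75 to 1.31, *SLC1A5* to *SLC1A4* from -1.64 to -0.99 (fewer animals leave fewer splits), *SLC3A1* to *SLC3A2* from -0.063 to 0.18 and *SLC36A1* to *SLC36A4* from -0.13 to 0.43. Beyond what is stated here the cause of a change with the setting was not tested. Depth limits *SLC1A3*, *SLC6A7*, *SLC38A11*, *SLC6A4* and *SLC3A1*, each with under 500 counts over the 12 animals.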
